A study of Mus musculus with 10 samples.

Results

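Public heavy-chain CDR3s are antibody sequences shared by several mice, here by mice of both treatment groups of a mouse glioma experiment. The unit is a pair of V gene call and CDR3 amino acid sequence. A pair was public when productive heavy-chain sequences carried it in 2 or more anti-CTLA-4 mice and in 2 or more isotype mice. This rule found 96 public pairs among 270852 pairs, or 0.0354%. Another 267218 pairs were private, that is found in 1 mouse only, and 3538 were shared between mice without meeting the rule. The pairs were chosen by presence in the 10 mice, so their number of mice and their presence in both groups are the rule and not a result.

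Wild-type C57BL/6 mice carried intracranial GL261 tumours, a transplanted mouse glioma line. The 5 anti-CTLA-4 mice received an antibody against the T cell checkpoint receptor CTLA-4, and the 5 isotype mice received a control IgG. Deep cervical lymph nodes, which drain the head, were taken from every mouse at day 20, and B cell receptor libraries were made from RNA of all dissociated cells. The labels give neither dose nor sex nor age. The libraries held 33568 to 63017 assembled sequences per mouse, with 23685 to 46107 productive heavy-chain sequences and 158989 to 362371 heavy-chain deposited counts. In bulk RNA, fewer cells of a clone and less receptor RNA per cell cannot be told apart.

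The CDR3 is the loop formed where a V, a D and a J segment are joined, and it varies through the choice of segments, through trimming and through added N and P nucleotides. Different nucleotide junctions can encode the same amino acids, which is called convergent recombination. Short loops with few added nucleotides are known to recur between individuals. In mice, IGHV11-2 and IGHV12-3 are known as heavy-chain genes of B-1 cells that bind phosphatidylcholine, and such cells arise largely in early life, when the enzyme TdT, which adds N nucleotides, is scarce.

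Libraries of the same group shared some high-count sequences. Of 268 rearrangements (V gene, J gene and junction) with a count of at least 1000 in some mouse, 148 (55.2%) were also found in another mouse of the same group and 4 (1.49%) in a mouse of the other group. The highest such copy within the group had a median of 2.57% of the top count. IGHV1-50 ARMGRAFDY, the example with 5 mice, had counts of 104572, 3184, 377, 120 and 43 in anti-CTLA-4 mice 1 to 5 and 0 in each isotype mouse. Of the 96 pairs, 95 met the rule also after leaving out minor copies, that is rearrangements of a mouse with under 5% of their count in another mouse. The 73 pairs with a highest count under 10 could not fail this check, since each of their counts was over 5% of any other. With each rearrangement kept only in the mouse of its highest count, 27 pairs met it, and at a count of at least 2, 24 pairs. Of the 4 high-count rearrangements seen in both groups, 3 belonged to public pairs: IGHV10-1 VRGGFAY, IGHV11-2 MRYGSSYWYFDV and IGHV3-6 ASYSNFDY.

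The leading pairs include some with 1 widely found junction and some with several junctions. The following sequences run 5′ to 3′ from the conserved cysteine codon to the conserved tryptophan codon, in lower case, with capitals at bases that differ from the pair's most widely found junction, and all lie in the heavy-chain locus on mouse chromosome 12. The first 4 pairs are those in which 1 junction was found in 8 or more mice.
IGHV11-2 MRYGSSYWYFDV, junction 1: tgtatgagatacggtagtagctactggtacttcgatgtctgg
IGHV11-2 MRYGSSYWYFDV, junction 2: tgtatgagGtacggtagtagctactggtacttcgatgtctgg
IGHV11-2 MRYGSSYWYFDV, junction 3: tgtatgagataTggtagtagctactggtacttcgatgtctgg
IGHV11-2 MRYGSSYWYFDV, junction 4: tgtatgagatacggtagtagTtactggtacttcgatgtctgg
IGHV11-2 MRYGNYWYFDV, junction 1: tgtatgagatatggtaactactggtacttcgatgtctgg
IGHV11-2 MRYGNYWYFDV, junction 2: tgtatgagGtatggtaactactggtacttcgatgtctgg
IGHV11-2 MRYGNYWYFDV, junction 3: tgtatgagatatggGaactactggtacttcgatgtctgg
IGHV11-2 MRYSNYWYFDV, junction 1: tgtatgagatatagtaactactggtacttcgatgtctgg
IGHV11-2 MRYSNYWYFDV, junction 2: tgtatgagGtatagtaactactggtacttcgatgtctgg
IGHV11-2 MRYDGYYWYFDV, junction 1: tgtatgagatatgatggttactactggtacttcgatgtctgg
The next pair had the largest number of distinct junctions among the public pairs, and no junction of it was found in both groups. Of its 8 junctions, 6 are shown.
IGHV11-2 MRGTGWYFDV, junction 1: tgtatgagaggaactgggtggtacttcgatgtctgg
IGHV11-2 MRGTGWYFDV, junction 2: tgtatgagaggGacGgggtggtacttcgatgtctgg
IGHV11-2 MRGTGWYFDV, junction 3: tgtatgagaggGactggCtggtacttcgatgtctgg
IGHV11-2 MRGTGWYFDV, junction 4: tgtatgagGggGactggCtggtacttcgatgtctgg
IGHV11-2 MRGTGWYFDV, junction 5: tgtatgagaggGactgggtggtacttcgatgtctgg
IGHV11-2 MRGTGWYFDV, junction 6: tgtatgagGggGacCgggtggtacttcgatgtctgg
The short IGHV6-3 pair had 6 junctions, and the IGHV10-1 pair was the most counted class-switched public pair, shown by its 3 junctions with a count over 1.
IGHV6-3 TGGFAY, junction 1: tgcacaggagggtttgcttactgg
IGHV6-3 TGGFAY, junction 2: tgcacaggGgggtttgcttactgg
IGHV6-3 TGGFAY, junction 3: tgcacaggCgggtttgcttactgg
IGHV6-3 TGGFAY, junction 4: tgcacaggGggTtttgcttactgg
IGHV6-3 TGGFAY, junction 5: tgcacaggaggCtttgcttactgg
IGHV6-3 TGGFAY, junction 6: tgcacTggGgggtttgcttactgg
IGHV10-1 VRGGFAY, junction 1: tgtgtgaggggggggtttgcttactgg
IGHV10-1 VRGGFAY, junction 2: tgtgtgagAggggggtttgcttactgg
IGHV10-1 VRGGFAY, junction 3: tgtgtgagAggAgggtttgcttactgg
The most counted public pair of IgM and the leading IGHV12-3 pair were as follows.
IGHV3-6 ASYSNFDY, junction 1: tgtgcaagctatagtaactttgactactgg
IGHV3-6 ASYSNFDY, junction 2: tgtgcaagctatagtaaTtttgactactgg
IGHV12-3 AGDRDGYWYFDV, junction 1: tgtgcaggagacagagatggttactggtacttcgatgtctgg
IGHV12-3 AGDRDGYWYFDV, junction 2: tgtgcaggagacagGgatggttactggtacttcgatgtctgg
IGHV12-3 AGDRDGYWYFDV, junction 3: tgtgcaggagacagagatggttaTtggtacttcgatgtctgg
IGHV12-3 AGDRDGYWYFDV, junction 4: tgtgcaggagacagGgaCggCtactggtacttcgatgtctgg

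Most public pairs were found with more than 1 distinct junction. Junctions were counted without a filter for sequencing error or mutation, so their number is not a number of independent joinings. A junction of IGHV1-39 ARYDYDYAMDY, for example, had a count of 1 and 1 changed base, in the tryptophan codon. Of 96 pairs, 87 had 2 or more distinct junctions, 31 had 4 or more and 9 had 1. The number of junctions per pair was 3.08 ± 1.30 (SD over 96 pairs), with a median of 3 and a total of 296. A junction found in both groups existed for 75 pairs, while 9 pairs had no junction in more than 1 mouse. Among the 300 rearrangements of the public pairs, 88 were found in both groups, 25 in 2 or more mice of 1 group alone and 187 in 1 mouse.

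The 3 pairs found in all 10 mice, and 6 of the 13 pairs found in 7 or more mice, used IGHV11-2 with IGHJ1. MRYGSSYWYFDV had counts of 74, 1788, 11, 9 and 27 in anti-CTLA-4 mice 1 to 5, and of 46, 22, 33, 103 and 109 in isotype mice 1 to 5. Its first junction was present in all 10 mice, and the 3 others differed from it by 1 base each. The anti-CTLA-4 mice held both the highest and the lowest counts, so the groups overlapped. MRYGNYWYFDV had counts of 18, 117, 76, 10 and 3 in anti-CTLA-4 mice, and of 2, 35, 24, 39 and 48 in isotype mice. MRYSNYWYFDV had counts of 203, 35, 14, 89 and 42 in anti-CTLA-4 mice, and of 71, 155, 210, 54 and 62 in isotype mice. Both overlapped between the groups, and the first junction of MRYSNYWYFDV, in all 10 mice, had V and J ends that overlapped by 1 base in the alignment. MRYDGYYWYFDV had 1 junction, the same in 8 mice, with a highest count of 11.

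**Figure D1:**
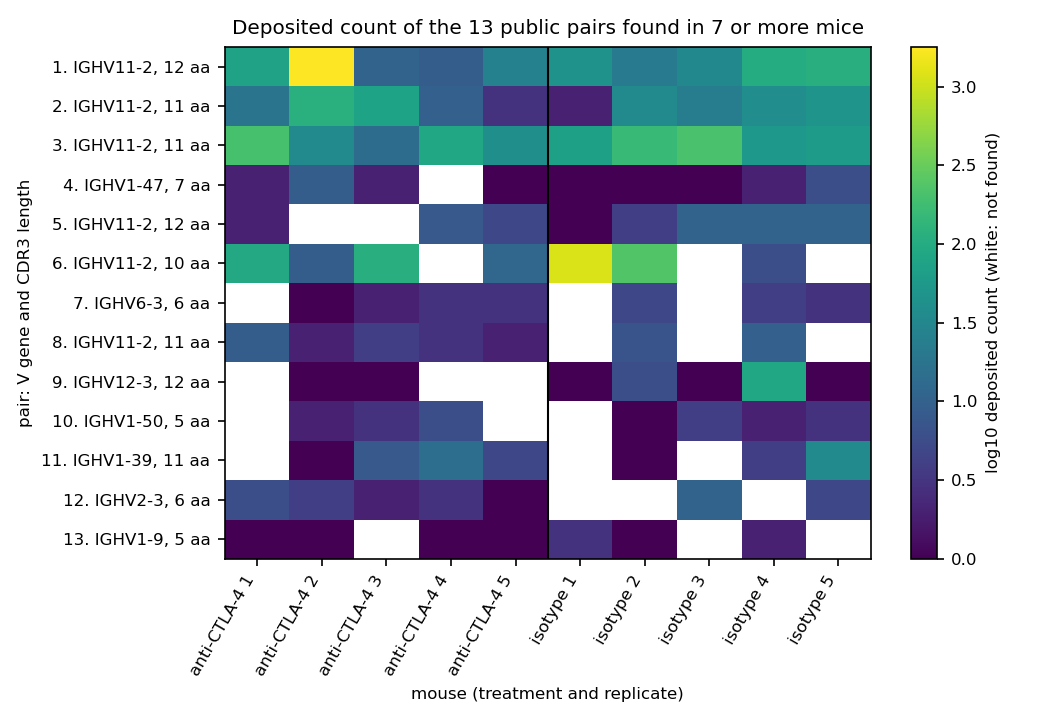
Deposited count, as log10 in colour, of the 13 public pairs found in 7 or more mice (rows, named by V gene and CDR3 length in amino acids) in each mouse (columns, anti-CTLA-4 mice left of the line and isotype mice right of it). White cells mark mice in which the pair was not found, and the 3 upper rows, all IGHV11-2, are filled in all 10 mice.

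MRGTGWYFDV showed the opposite arrangement, with 8 junctions spread over 7 mice. It had counts of 92, 9, 113, 0 and 12 in anti-CTLA-4 mice, and of 1178, 237, 0, 6 and 0 in isotype mice. Isotype mouse 1 held the highest count, of which 748 were IgG3, and 3 counts of IgG3 were found in anti-CTLA-4 mouse 5. Its V segment was unmutated in 14 of 15 clonotypes, a clonotype being a distinct V call, J gene, junction and constant gene within a mouse. MRYGPYWYFDV, in 7 mice, had 5 junctions, none of them in both groups, and a total count of 37.

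IGHV11-2 and IGHV12-3 supplied more public pairs for their size than other V genes. IGHV11-2 had 9 public pairs among its 298 pairs, 302 per 10000, and IGHV12-3 had 4 among 169, 237 per 10000, against 12.8 per 10000 for IGHV3-6, the gene with most public pairs (15). The next rates came from small genes with 1 public pair each, IGHV3-5 (110 per 10000) and IGHV1-11 (54.6 per 10000). Public pairs held 53.0 to 97.5% of IGHV11-2 counts in anti-CTLA-4 mice and 43.5 to 96.0% in isotype mice. The IGHV12-3 pair AGDRDGYWYFDV had counts of 0, 1, 1, 0 and 0 in anti-CTLA-4 mice, and of 1, 6, 1, 87 and 1 in isotype mice. Isotype mouse 4 alone was high, and 81 of its counts came from 1 junction that no other mouse had. IGHV7-1, whose antibodies bind phosphorylcholine, had no public pair among its 477 pairs, and the IGHV8 family had none among 15338. At the share of 0.0354% over all pairs, 477 pairs are too few to read the absence for IGHV7-1 as a result. The joint call IGHV1-62-3 and IGHV1-72, the second of which is known for responses to the hapten NP, had 3 public pairs, led by ARGYYYAMDY with a count of 1 in each of 5 mice.

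The other public pairs were mostly short sequences of larger V genes. The 96 pairs used 30 V gene calls and 77 distinct CDR3s, and 10 CDR3s occurred with 2 or more V calls, covering 29 pairs. AREDY and ARGFAY each occurred with 4 V calls. After IGHV3-6 and IGHV11-2, IGHV1-80 had 7 public pairs and IGHV1-50, IGHV1-9, IGHV10-1, IGHV6-3 and IGHV9-3 had 5 each. IGHV1-47 ARGGFAY was found in 9 mice with counts of 2, 9, 2, 0 and 1 in anti-CTLA-4 mice and 1, 1, 1, 2 and 6 in isotype mice. IGHV6-3 TGGFAY had counts of 0, 1, 2, 3 and 3 in anti-CTLA-4 mice and 0, 5, 0, 4 and 3 in isotype mice. IGHV1-50 ARGGY, IGHV1-39 ARYDYDYAMDY, IGHV2-3 AKLFAY and IGHV1-9 AREGY were each found in 7 mice, with highest counts of 6, 36, 11 and 3. Low counts were the rule, since the highest count was under 10 in 73 pairs and the total was at least 100 in 11 pairs.

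CDR3s of the public pairs were short. By the rule over all mice, public pairs had a median length of 7 amino acids, against 12 for private pairs, and 63.5% of public pairs had 8 or fewer amino acids, against 9.96% of private pairs. The shortest length with public pairs was 5 amino acids, with 21 pairs, or 94.0 per 10000 of all pairs of that length. Of the 21 public pairs with 11 or more amino acids, 12 used IGHV11-2 or IGHV12-3, and 7 public CDR3s held the letters YGSS. These values include the samples that chose the members and carry no test.

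**Figure D2:**
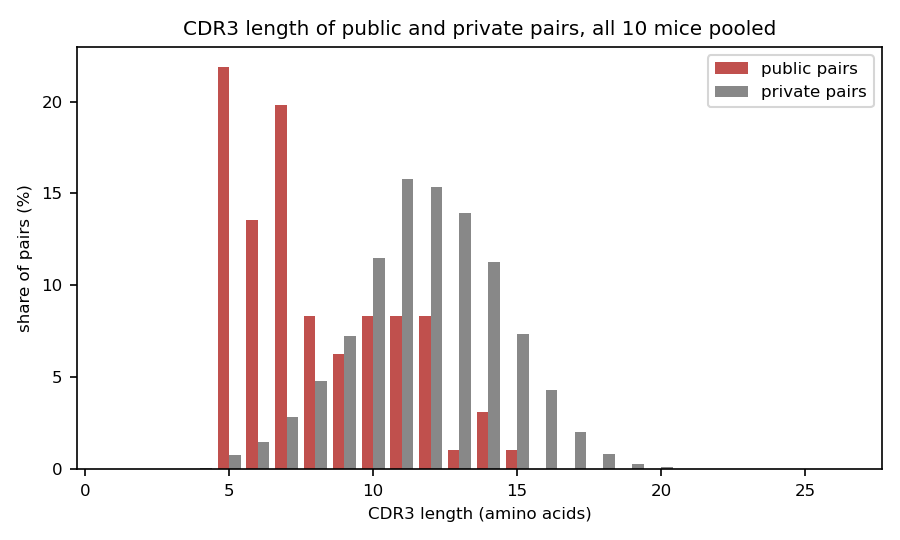
Share of pairs in percent by CDR3 length in amino acids, for the 96 public and the 267218 private pairs of all 10 mice. Public pairs peak at 5 to 7 amino acids and private pairs at 11 and 12.

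For the tests, membership was decided for each mouse from the other 9 mice alone, and the features were read in the mouse itself. A pair needed 2 or more other mice of its own group and 2 or more of the other group. The 45 pairs found in 2 mice of each group could therefore not enter. A pair found in 2 mice of one group and in more than 2 of the other was read only in mice of the latter group. The pairs read thus differed in part between the treatments. Many pairs were read again in several mice, so in these tests the 10 mice do not give independent values, and agreement between mice partly repeats the same sequences. Each mouse then had 16 to 28 public pairs and 19265 to 38850 private pairs. CDR3s were 8.50 ± 0.444 amino acids long in public pairs and 11.8 ± 0.0352 in private pairs (SD, n = 10 mice), shorter in 10 of 10 mice, a difference of -3.34 (two-sided exact sign-flip test, p = 0.00195, the smallest it can give; adjusted p = 0.00326 over 10 features). The difference was -1.81 at a count of at least 2 and -3.57 without minor copies. The stretch between the aligned V and J ends was 4.68 ± 0.668 nucleotides in public and 16.0 ± 0.0609 in private rearrangements (SD, n = 10), shorter in 10 of 10 mice (difference -11.3, same exact test, adjusted p = 0.00326). It holds only those D and added nucleotides that were not aligned to V or J. A D segment was called in 26.6% of public and 89.2% of private rearrangements over all mice. Both measures depend on the deposited alignment. IGHV11-2 MRYGSSYWYFDV had a mean stretch of 3.88 nucleotides and D calls in 0% of rearrangements. IGHV1-15 TRNYGSSYWYFDV, which ends in the same YGSSYWYFDV, had 9 nucleotides and D calls in 100%.

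**Figure D3:**
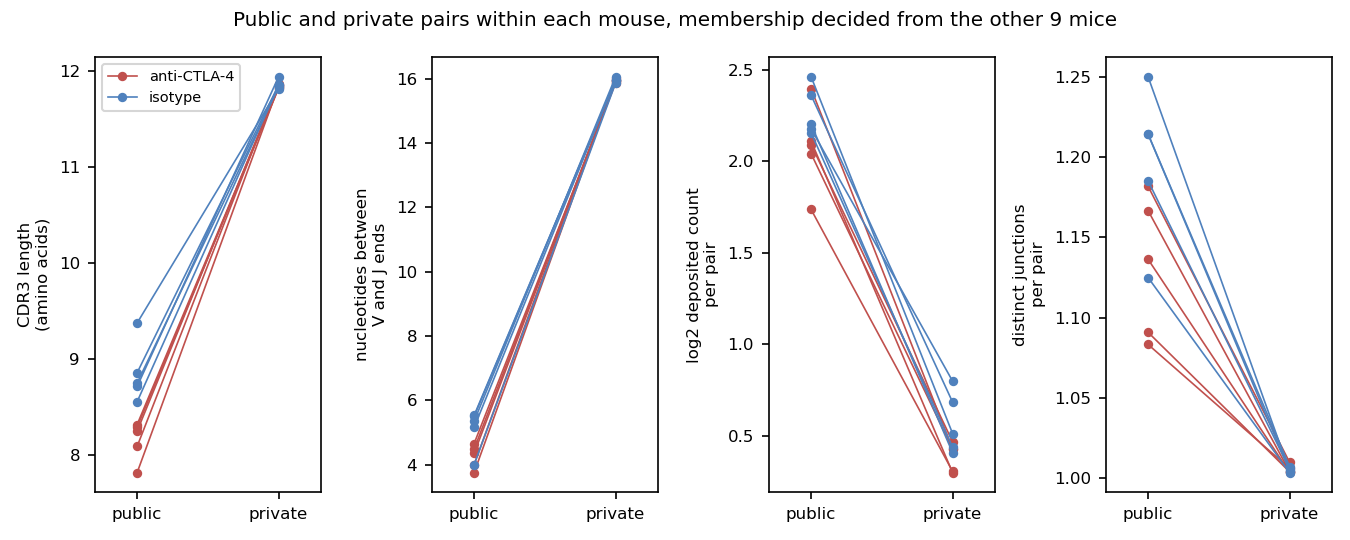
Mean CDR3 length, nucleotides between V and J ends, log2 deposited count per pair and distinct junctions per pair, for public (left) and private (right) pairs of each of the 10 mice, joined by a line and coloured by treatment. Within a panel every line runs the same way.

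Public pairs also had more junctions and higher counts than private pairs within a mouse. Distinct junctions per pair were 1.16 ± 0.0551 for public and 1.01 ± 0.00202 for private pairs (SD, n = 10), higher in 10 of 10 mice (exact sign-flip test, adjusted p = 0.00326). The mean log2 count per pair was 2.17 ± 0.21 for public and 0.48 ± 0.16 for private pairs, a difference of 1.69 (SD, n = 10; adjusted p = 0.00326, same exact test), and 0.86 without IGHV11 and IGHV12 genes. Over all mice, the median count of a pair in a mouse was 2 for public and 1 for private pairs, and 1 for pairs shared without meeting the rule. The mean counts were 27.6, 4.28 and 180 in the same order. Private pairs are absent from all other mice, so high-count sequences that recurred in another mouse of the group were not among them.

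J gene use differed between public and private pairs for IGHJ1 and IGHJ4. IGHJ1 made up 42.5 ± 7.76% of public and 16.2 ± 0.302% of private rearrangements (SD, n = 10), higher in 10 of 10 mice (exact sign-flip test, adjusted p = 0.00326). Without IGHV11 and IGHV12 genes the difference was -4.50 percentage points and did not pass (adjusted p = 0.126), against 26.3 with them. IGHJ4 was lower, at 9.52 ± 5.41% of public and 27.2 ± 0.426% of private rearrangements (SD, n = 10; exact sign-flip test, adjusted p = 0.00326). Without IGHV11 and IGHV12 genes the IGHJ4 difference was -11.2 points, lower in 9 of 10 mice (adjusted p = 0.0488), against -17.7 with them. IGHJ2, at 25.02 ± 9.97% and 32.9 ± 0.447%, did not pass after adjustment (exact p = 0.0352, adjusted p = 0.0502), nor did IGHJ3, at 23.0 ± 8.07% and 23.7 ± 0.425% (exact p = 0.760); without the IGHV11 and IGHV12 genes IGHJ3 was 11.9 points higher in public rearrangements (adjusted p = 0.0273).

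V gene use was tested on the 315 public clonotypes against the private ones of the same mice, with the mouse as a term (edgeR quasi-likelihood test, library sizes without TMM factors, Benjamini-Hochberg adjustment). A pair that recurs between mice counts as a separate clonotype in each, so the p-values do not rest on independent pairs. Of 79 V calls tested, 6 were higher in public clonotypes (7.59%) and 21 were lower (26.6%). With TMM factors the counts were 2 higher and 61 lower, and with DESeq2 2 higher and 44 lower. IGHV11-2 made up 33.6 ± 8.97% of public and 0.101 ± 0.0133% of private clonotypes (SD, n = 10), higher in 10 of 10 mice (log2 fold change 8.42, adjusted p = 1.4e-178). IGHV1-47 made up 4.21 ± 2.21% and 0.292 ± 0.0408% (adjusted p = 3.44e-10), higher in 9 of 10 mice. All 13 public clonotypes of IGHV1-47 were ARGGFAY, its 1 public pair, read again in each mouse. IGHV3-6 made up 16.5 ± 8.86% and 4.25 ± 0.368%, higher in 9 of 10 mice, but this did not hold with TMM factors (adjusted p = 0.314). IGHV6-3, IGHV1-39 and IGHV2-3 were the other higher calls, and IGHV2-3 likewise had 1 public pair, AKLFAY. All 12 public clonotypes of IGHV1-39 were ARYDYDYAMDY, since its other public pair, in 2 mice of each group, could not enter. Without isotype mouse 2 or isotype mouse 4, neither IGHV6-3 (log2 fold change 1.13 and 1.09, adjusted p = 0.213 and 0.254) nor IGHV1-39 (1.14 and 1.09, adjusted p = 0.242 and 0.296) passed, nor did IGHV1-39 without isotype mouse 5 (1.00, adjusted p = 0.296). IGHV1-82, IGHV8-12, IGHV1-69, IGHV1-81 and IGHV1-55 had no public clonotype under this rule, against 10120, 8135, 7887, 7140 and 7080 private ones. IGHV1-69 and IGHV1-55 each had 1 public pair over all mice, found in 2 mice of each group, which could not enter. With membership from all mice their log2 fold changes were -2.12 and -1.96, against -11.6 and -11.5 here. The 5 public pairs of IGHV10-1 could likewise not enter, so these absences were fixed by the rule. IGHV12-3 did not reach the filter on low numbers.

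**Figure D4:**
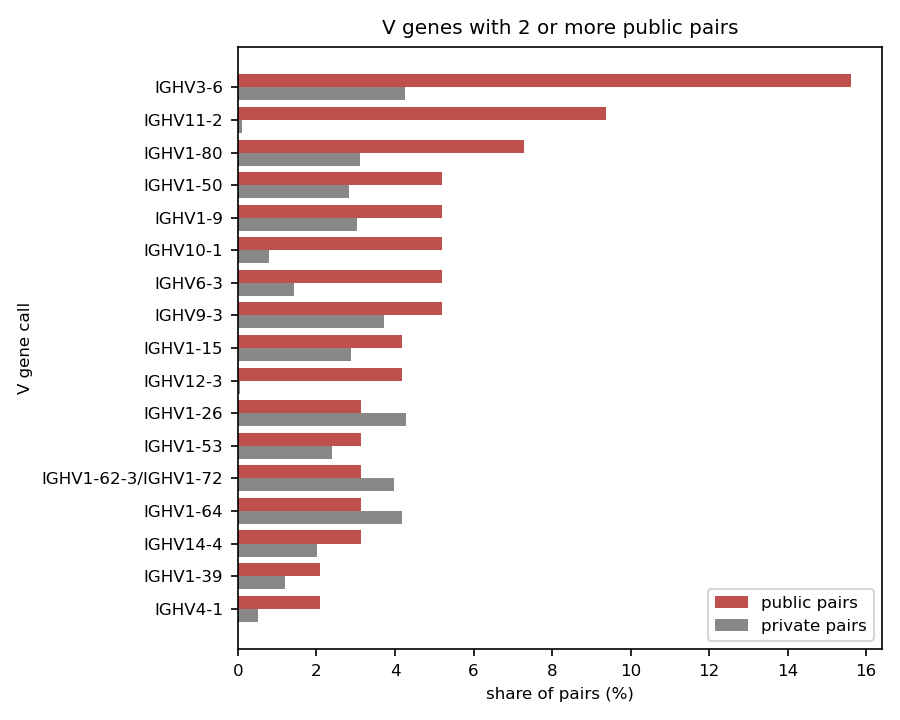
Share of pairs in percent by V gene call for the 17 calls with 2 or more public pairs, with public pairs above private pairs in each row. IGHV3-6 and IGHV11-2 lead the public pairs, and IGHV11-2 and IGHV12-3 are almost absent among private pairs.

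Public pairs were mostly unswitched. IgM was found for 95 of the 96 pairs, IgD for 62, IgG for 7, IgA for 5 and IgE for none, and 88 pairs had IgM or IgD alone. Over all mice, IgM made up 76.8% of public and 72.9% of private clonotypes, IgD 18.9% and 24.99%, IgG 2.67% and 1.55% and IgA 1.67% and 0.445%. The switched share within mice was 4.34 ± 5.86% for public and 2.24 ± 1.33% for private clonotypes (SD, n = 10), a difference smaller than its spread (exact p = 0.307). IgM clonotypes of public pairs had 0.0790 ± 0.0599 V mismatches per 100 nucleotides, against 0.131 ± 0.0144 in private pairs (SD, n = 10), lower in 8 of 10 mice and not past the threshold (exact p = 0.0449, adjusted p = 0.0562).

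IgG or IgA was found for 8 public pairs, with counts that ranged widely. IGHV10-1 VRGGFAY was IgA in 4 mice, with counts of 450 and 134 in anti-CTLA-4 mice 2 and 3 and of 1238 and 652 in isotype mice 1 and 3, and IgG2b and IgG2c only in anti-CTLA-4 mouse 3 with counts of 3 and 7. It is the one public pair without IgM, and 2 of its 4 junctions were found in both groups. IGHV3-6 ASYSNFDY, the most counted public pair with a total of 2721, had counts of 0, 82, 0, 255 and 137 in anti-CTLA-4 mice and of 1018, 0, 0, 1229 and 0 in isotype mice. It was IgM but for anti-CTLA-4 mouse 2, where IgG1, IgG2b and IgG2c had counts of 1, 19 and 60. IGHV4-1 ASTDWYFDV had IgG2b and IgG3 counts of 5 and 18 in isotype mouse 2, and IGHV1-18 ARGLFDY an IgG1 count of 22 in anti-CTLA-4 mouse 2. IGHV1-39 ARYDYDYAMDY had IgA, IgG2b and IgG3 counts of 10, 6 and 3 in isotype mouse 5. IGHV3-5 ARYDGYFDY had IgA counts of 12 in anti-CTLA-4 mouse 4 and 2 in isotype mouse 5. IGHV14-4 TTGGY had a single IgG2c count, in anti-CTLA-4 mouse 2.

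None of 5 measures of the public set (share of pairs, share of counts, IgG share, V mismatches and junctions per pair) differed between treatments past the threshold. In a further comparison, chosen after seeing the data, public minus private CDR3 length and IGHJ3 share differed between treatments (exact permutation test, adjusted p = 0.0397 each). Neither did without IGHV11 and IGHV12 genes (adjusted p = 0.635 and 0.370) or without any 1 anti-CTLA-4 mouse. In all these comparisons the pairs read differed in part between the groups, so no difference is read as an effect of treatment. IGHV12-3 AGDRDGYWYFDV, in 2 anti-CTLA-4 and 5 isotype mice, was read in isotype mice alone. IGHV2-3 AKLFAY, in 5 and 2, was read in anti-CTLA-4 mice alone. Public CDR3s averaged 7.82 to 8.32 amino acids in anti-CTLA-4 mice and 8.56 to 9.38 in isotype mice. These ranges did not overlap, but they cover partly different pairs. Public pairs made up 0.0936 ± 0.0256% of pairs in anti-CTLA-4 mice and 0.0869 ± 0.0184% in isotype mice (SD, n = 5 each; two-sided exact permutation test, p = 0.627). Their share of counts was 0.313 ± 0.295% in anti-CTLA-4 mice and 0.318 ± 0.130% in isotype mice (SD, n = 5 each; exact permutation p = 0.984). Anti-CTLA-4 mouse 2, at 0.830%, stood above the 4 others of its group. The IgG share of public clonotypes was 2.76 ± 4.50% in anti-CTLA-4 mice and 4.19 ± 6.02% in isotype mice (SD, n = 5 each; exact permutation p = 0.841). V mismatches were 0.0419 ± 0.0140 per 100 nucleotides in anti-CTLA-4 mice and 0.0902 ± 0.0598 in isotype mice (SD, n = 5 each; exact permutation p = 0.143). Junctions per public pair were 1.13 ± 0.0440 in anti-CTLA-4 mice and 1.20 ± 0.0467 in isotype mice (SD, n = 5 each; exact permutation p = 0.0635). The smallest p this design allows is 0.00794, and the smallest p adjusted over the 5 measures was 0.317.

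**Figure D5:**
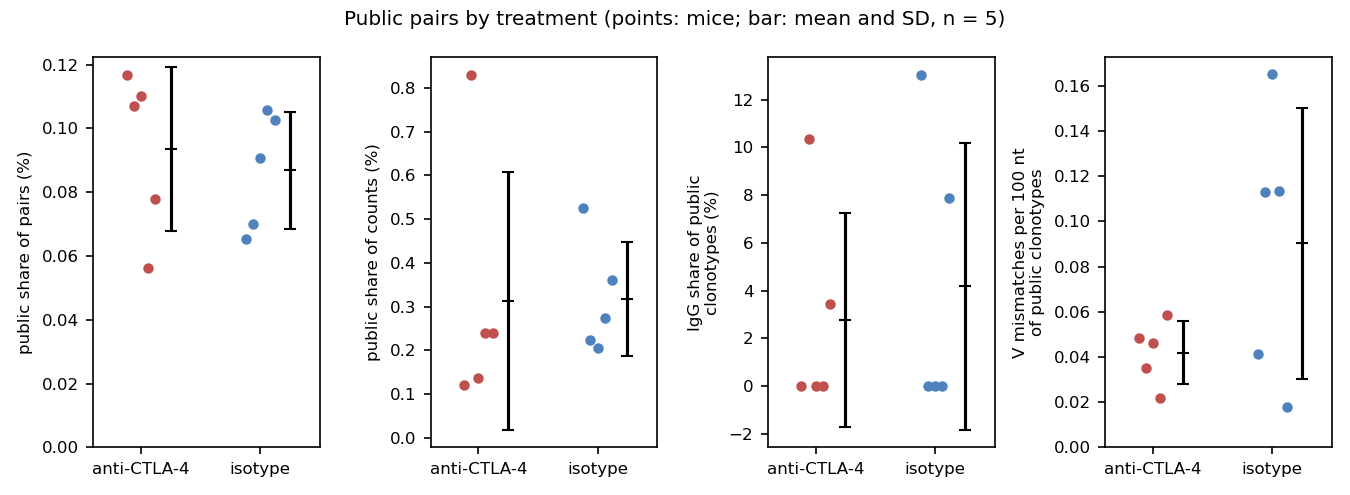
Public share of pairs and of counts in percent, IgG share of public clonotypes in percent and V mismatches per 100 nucleotides, in anti-CTLA-4 (left) and isotype (right) mice. Points are mice and bars the mean and SD of 5 mice, and the groups overlap in each panel.

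The deposited counts of single pairs were compared between treatments over 83 pairs found in 4 or more mice with a total count of at least 10, of which 51 were public. edgeR's quasi-likelihood test called 9 of the 83 pairs (10.8%). Each of the 9 had a count of 0 in every mouse of one group, so the rule kept them from being public, and the number of public calls, 0, is not read as a result. At an unadjusted p under 0.05 there was 1 public pair of 51, against 14 of all 83 pairs. The rule also shapes this count, since it keeps pairs found mainly in one group from being public. DESeq2 called 0 of the 83 pairs, but it gave no p-value for some of them, among these IGHV1-18 ARGLFDY and IGHV11-2 MRYGSSYWYFDV. After leaving out minor copies edgeR called 0 of 73. The public pairs with the smallest p higher in anti-CTLA-4 mice were IGHV1-18 ARGLFDY (log2 fold change 4.62, adjusted p = 0.158), IGHV9-3 ARDSNWYFDV (3.21, adjusted p = 0.525) and IGHV11-2 MRYGSSYWYFDV (3.95, adjusted p = 0.525, and -0.57 without anti-CTLA-4 mouse 2). Those lower were IGHV12-3 AGDRDGYWYFDV (-4.65, adjusted p = 0.283, and -1.56 without isotype mouse 4), IGHV1-80 ARGGY (-3.63, adjusted p = 0.506, with 119 of its 125 counts in isotype mouse 2) and IGHV11-2 MRYSSYWYFDV (-2.87, adjusted p = 0.509, from -4.95 without anti-CTLA-4 mouse 4 to -1.88 without isotype mouse 2). The median log2 fold change with TMM factors was -0.13 over the 51 public pairs and -0.16 over all 83. Without TMM factors the medians were -0.91 and -1.02, and with DESeq2 -0.93 and -1.02. They moved with the normalization, so they are not read as a shift, or the lack of one, between treatments.

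The threshold divides similar sequences. Just inside the rule, 45 pairs were found in 2 mice of each group, with a median total count of 7 and a median length of 7 amino acids. Just outside it, 295 pairs were found in 2 mice of one group and 1 of the other, with medians of 5 and 8. The most counted pairs inside were IGHV10-1 VRGGFAY, IGHV4-1 ASTDWYFDV and IGHV9-3 ARDSNWYFDV, with totals of 2484, 149 and 47. Those outside were IGHV1-82 ARGDYSNWYFDV, IGHV8-8 ARITTVVAFDY and IGHV8-12 ARRGRDYAMDY, with totals of 5173, 3763 and 1237.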

How the data were processed

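Per the labels' protocols, RNA was taken from all dissociated lymph node cells and libraries were made with a kit that adds molecular identifiers. For each mouse the authors deposited an AIRR table of assembled sequences with gene calls and a whole-number count, per the file headers. No source used here says whether counts are reads or molecules, or names the aligner. The other columns used, junctions, aligned sequences and gene calls, are likewise the authors' and carry no unit. Intervals and tests cover the spread between mice and counting error only.

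Productive heavy-chain sequences with a CDR3 were kept (55 to 115 per mouse lacked one). Joint V calls stayed joint. V mismatches were counted over at least 200 aligned nucleotides. All 32 V gene names matched the GRCm38.p6 gene table, used for names and the chromosome only. Tests were exact permutation tests in Python 3.11.15 (1024 sign patterns or 252 reassignments) and fits in edgeR 4.0.16 and DESeq2 1.42.0 with R 4.3.3. The planned V gene fit used TMM factors; on simulated data it called many unchanged genes, so library sizes alone were used and the TMM counts are given beside them. The count fit used TMM. Named pairs were those in most mice, with most junctions, highest count or most IgG, and with the smallest p. The members and lists were chosen with earlier results of these data known. Nothing in the labels says how the mice were housed or processed together. Alternatives left out each mouse, raised the count to 2 or the rule to 3 mice a group, drew an equal number of clonotypes, and kept each rearrangement in its top-count mouse.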

Additional observations from a re-analysis of the deposited data

Results flagged for a closer look

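Of 36 groups of 5 mice tested for a mouse far from the others, 3 were flagged, where chance flags about 1 in 20. The share of counts held by public pairs was 0.830% in anti-CTLA-4 mouse 2, against 0.119 to 0.239% in the 4 other anti-CTLA-4 mice. IGHV11-2 MRYGSSYWYFDV had 717 counts per 100000 heavy-chain counts in the same mouse, against 3.62 to 20.4 in the others. The public minus private difference in nucleotides between V and J ends was -11.9 in isotype mouse 1, against -10.8 to -10.4 in the other isotype mice.

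The public minus private difference itself was compared between the treatments for 10 features, a comparison chosen after seeing the data. The rule let partly different pairs enter in the 2 groups, so a difference here is not read as an effect of treatment. CDR3 length differed, with -3.68 amino acids in anti-CTLA-4 mice and -3.01 in isotype mice, a difference of -0.679 (two-sided exact permutation test, p = 0.00794, the smallest it can give; adjusted p = 0.0397). The IGHJ3 share differed, with 5.91 percentage points in anti-CTLA-4 mice and -7.41 in isotype mice, a difference of 13.3 (exact permutation p = 0.00794, adjusted p = 0.0397). Without IGHV11 and IGHV12 genes the length difference was -0.0975 (adjusted p = 0.635) and the IGHJ3 difference 13.5 (adjusted p = 0.370). Without minor copies both passed, at -0.724 and 16.1 (adjusted p = 0.0397 each). With an equal number of clonotypes they were -0.814 and 10.99 (adjusted p = 0.0992 and 0.0794), and with a count of at least 2 they were -0.115 and 5.00 (adjusted p = 0.913 and 0.516). Leaving out each mouse in turn gave length differences of -1.22 to -0.271, the weakest without anti-CTLA-4 mouse 2 (adjusted p = 0.432), and IGHJ3 differences of 2.30 to 23.3, the weakest without isotype mouse 3 (adjusted p = 0.595). Both passed without isotype mouse 1, 2, 4 or 5, and neither passed without isotype mouse 3 or without any 1 anti-CTLA-4 mouse.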

How the results depend on the processing

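The direction and call of public against private CDR3 length, V to J distance and log2 count held under every alternative run (length -4.88 to -1.81, distance -12.2 to -9.76, log2 count 0.86 to 2.99), and so did those of IGHJ4 and junctions per pair apart from 1 setting. That setting kept each rearrangement in its top-count mouse, and gave 0.343 for junctions per pair, 7.13 for IGHJ1, -0.512 for IGHJ4, 12.98 for IGHJ3 and 0.0391 for IgM mismatches, none past the threshold, with a public share of counts difference of 0.0126, an IgG difference of 4.00, 2 V genes called and 0 pairs called. Public minus private IgM mismatches passed with a count of at least 2 (-0.0852), with 3 mice a group (-0.0824), with membership from all mice (-0.0456), with equal clonotype numbers (-0.0798) and as a mutated share (-4.67 points). IGHJ2 passed with a count of at least 2 (-15.7), 3 mice a group (-23.3) and equal clonotype numbers (-10.5), and turned to 1.18 with membership from all mice. IGHJ3 passed with a count of at least 2 (-15.3) and with membership from all mice (-3.60), and turned to 0.358 with 3 mice a group and 2.57 without minor copies. Without IGHV11 and IGHV12 genes, IGHJ1 turned to -4.50, IGHJ2 to 3.76 and IGHJ3 to 11.9. The switched share turned to -0.705 with 3 mice a group and -0.0414 with equal clonotype numbers. The cause was not tested for any of these.

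None of the 5 treatment measures of the public set passed after adjustment under any alternative run. Those that turned were the share of counts (0.00266 with a count of at least 2, 0.120 with 3 mice a group, 0.00711 without IGHV11 and IGHV12), the IgG share (1.54 with 3 mice a group, 0.135 with membership from all mice, 0.457 without IGHV11 and IGHV12, 1.62 without minor copies), mismatches (0.0302 with 3 mice a group, 0.00295 with equal clonotype numbers) and junctions per pair (0.0202 and 0.00251 in the same settings). V genes called numbered 27, against 2 with 3 mice a group, 13 at a count of at least 2, 16 with equal clonotype numbers, 43 with membership from all mice, 46 with DESeq2 and 63 with TMM factors. IGHV3-6 turned to -12.19 with 3 mice a group and -12.20 in the top-count setting, where IGHV1-47 was -8.43 and IGHV1-39 -10.36; IGHV6-3 was -0.0523 and IGHV1-39 -0.26 with DESeq2, and IGHV1-39 -0.0166 with TMM factors. Pairs called by count numbered 9, against 1 for IgM and IgD counts, 2 with filterByExpr and 6 without TMM factors. They numbered 0 without minor copies, with DESeq2 or among pairs in at least 2 mice. DESeq2 gave no p-value for some pairs.

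Leaving out each mouse in turn gave switched share differences of -1.53 to 3.66, IgM mismatch differences of -0.0935 to -0.0321, IGHJ2 differences of -15 to -6.74, IGHJ3 differences of -2.1 to 2.62, treatment differences in share of pairs of -0.0118 to 0.0238, in share of counts of -0.197 to 0.126, in IgG share of -5.31 to 3.27, V genes called of 17 to 24, pairs called of 0 to 7, and public pairs of 59 to 78, and MRYGSSYWYFDV log2 fold changes of -0.57 to 4.39, with 17 V genes called without isotype mouse 2 and 59 public pairs without anti-CTLA-4 mouse 4. With the replicate number as a block, 0 pairs were called, MRYGSSYWYFDV had a log2 fold change of -0.38 IGHV1-80 ARGGY had -0.08, and none of the 5 treatment measures passed; same-numbered mice correlated at -0.116 to 0.166 over 72 V genes, so the numbers were not taken as pairs. Each mouse had a mean of 23.7 public pairs by the other 9 mice, which limits the precision of every share.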
